A study of Vitis vinifera with 2 samples.

Results

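Stilbene synthases make resveratrol, and in grapevine (Vitis vinifera) many of their gene copies lie side by side on chromosome 16. The genes described here are all those whose transcript models lie between positions 16200000 and 16750000 of that chromosome and whose FPKM, summed over models, reached 1 in 1 library or both. FPKM counts fragments for each kilobase of a transcript and corrects for library size. Positions are as the files give them, on a build that the sources used here do not name. The rule kept 38 of the 40 genes in the window, out of 30485 genes in the tables. The window was chosen because its genes were already known to be higher in the treated library of these data, so its ratios are given as a description, with no test.

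The data are 2 RNA libraries of wounded grape tissue. The treated library comes from wounds given 10 µL of suspended Yarrowia lipolytica, a yeast, and the control library from wounds given as much sterile water. Tissue of both groups was sampled 3 days later, after incubation at 20 °C. Groups follow the sample titles, since the label for strain reads the same in the yeast and the water sample. Cultivar, developmental stage and number of berries are not given in the sources used here. Each group has 1 library, so no difference has a replicate check and no p-value is given. The brackets after a ratio hold a 95% counting interval, which covers counting error only.

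Stilbene synthase is a plant polyketide synthase. It joins coumaroyl-CoA from the phenylpropanoid pathway with malonyl-CoA and closes the chain to resveratrol, a phytoalexin of grape berries and leaves. Chalcone synthase, the first enzyme of flavonoid synthesis, uses the same substrates. Upstream, phenylalanine ammonia-lyase and 4CL supply the coumaroyl-CoA, and the transcription factor MYB14 is known to activate stilbene synthase genes of grapevine.

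Only 2 genes of the window carry a stilbene synthase symbol in the files, STS and VINST1, and a RefSeq gene table gives VINST1 the synonyms RS, STS2 and VST1. The other names are LOC numbers for which neither the files nor that table gives a product, so no enzyme name is given to them here. The table lists 34 of the 38 genes as protein coding, 2 as pseudogenes and 1 as a long non-coding RNA, and has no row for STS.

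Of the 38 genes, 31 were higher in the treated library by 2-fold or more on the scale log2(FPKM + 1), and none was lower by as much with this pseudocount of 1. Among all 16040 measured genes 6.26% passed this limit upwards and 3.66% downwards. The 4-fold limit was passed by 25 of the 38, against 1.95% of all genes. Because the window was picked by this ratio, nothing is read from these counts. The median log2 ratio of the 38 genes was 2.25, beside -0.28 for all measured genes. Together the 38 genes held 10521 FPKM in the treated library and 1995 FPKM in the control library, 5.27-fold more (5.22 to 5.32). They took 1.37% of fragments in the treated library (exact 95% interval 1.36 to 1.37) and 0.264% in the control library (0.262 to 0.267). In bulk tissue, more cells with these transcripts and more RNA per cell cannot be told apart.

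**Figure D1:**
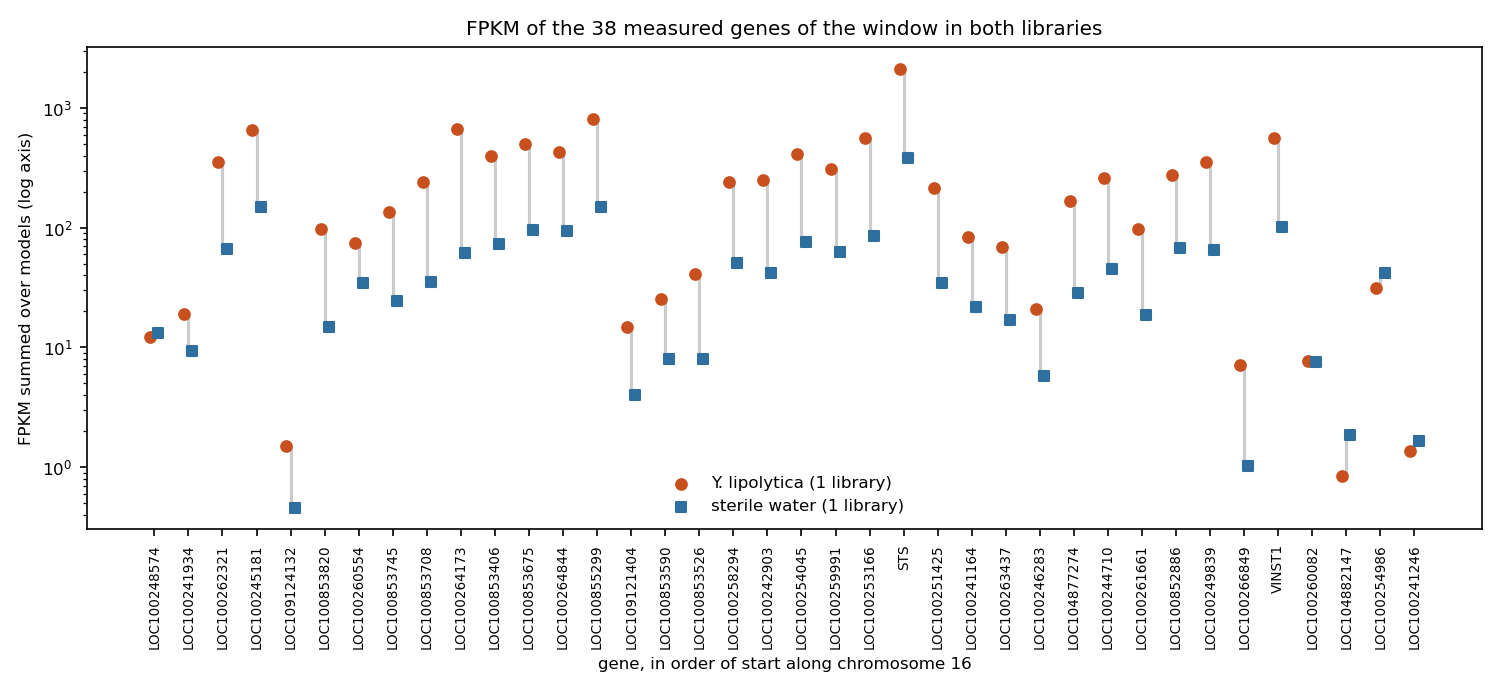
FPKM summed over the transcript models of each gene (vertical axis, log scale) in the treated library (circles) and the control library (squares), for the 38 measured genes in order of their start (horizontal axis). The circles stand above the squares from LOC100241934 to VINST1, and the genes at both ends of the row show no such gap.

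STS was the most abundant gene of the window in both libraries. It stood at 2121 FPKM in the treated library and 379 FPKM in the control library, 5.59-fold higher (5.47 to 5.72). Among all measured genes it ranked 34 by FPKM in the treated library and 270 in the control library. The symbol covers 2 annotated models of the same size, each with 2 exons and 1179 bases on the minus strand, that lie 200.801 kb apart. The copy at 16507942 to 16509479 stood at 258 FPKM in the treated library and 55.6 FPKM in the control library, 4.63-fold higher (4.36 to 4.92). The copy at 16710281 to 16711818 stood at 1252 FPKM in the treated library and 214 FPKM in the control library, 5.86-fold higher (5.69 to 6.04). The second copy is the more abundant in both libraries. The counting intervals of the 2 copies do not overlap, but they leave out how fragments were divided between the copies. Assembled models also span each copy, so no difference in ratio between the copies is read from the intervals.

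VINST1 lies at 16698300 to 16699842 on the same strand, 10438 bases before the second STS copy. Its single model has 2 exons and 1182 bases. It stood at 564 FPKM in the treated library and 101 FPKM in the control library, 5.57-fold higher (5.33 to 5.82). A further assembled model of 3 exons, filed under STS, starts at the start of VINST1 and ends at the end of the second STS copy. It held 612 FPKM in the treated library and 110 FPKM in the control library, so part of the STS value could equally belong to VINST1.

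The next most abundant genes were past 4-fold over all their models. LOC100855299 stood at 814 FPKM in the treated library and 149 FPKM in the control library, and LOC100264173 at 663 FPKM with the yeast and 61.9 FPKM with water. LOC100245181 stood at 658 FPKM with the yeast and 149.8 FPKM with water, and LOC100253166 at 560 FPKM with the yeast and 85.5 FPKM with water. LOC100853675 stood at 501 FPKM with the yeast and 95.3 FPKM with water. Their ratios ran from 4.39 for LOC100245181 to 10.7 for LOC100264173, whose annotated model alone was 1.87-fold higher. LOC100264844 followed with 426 FPKM in the treated library and 94.2 FPKM in the control library, 4.53-fold higher (4.35 to 4.71), on 1 annotated model of 2 exons at 16398128 to 16400125.

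A middle group followed. LOC100254045 stood at 412 FPKM with the yeast and 75.2 FPKM with water, LOC100853406 at 395 FPKM with the yeast and 73.3 FPKM with water, and LOC100249839 at 355 FPKM with the yeast and 65.1 FPKM with water. LOC100262321 stood at 354 FPKM with the yeast and 66.0 FPKM with water, LOC100259991 at 309 FPKM with the yeast and 62.7 FPKM with water, and LOC100852886 at 275 FPKM with the yeast and 67.3 FPKM with water. These 6 genes, grouped here by their abundance, were also close to each other in the control library. LOC100242903 stood at 249 FPKM with the yeast and 42.1 FPKM with water, LOC100853708 at 243 FPKM with the yeast and 35.1 FPKM with water, and LOC100258294 at 239 FPKM with the yeast and 50.5 FPKM with water. LOC104877274 stood at 166 FPKM with the yeast and 28.2 FPKM with water, and LOC100853745 at 136 FPKM with the yeast and 24.2 FPKM with water. Over all their models every gene of this group was past 4-fold. By annotated models alone 5 of these genes were below it, LOC100853745 (2.57), LOC100853708 (2.65), LOC100254045 (3.69), LOC100258294 (3.71) and LOC100262321 (3.74).

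Genes of low abundance in the window were higher too. LOC100853820 stood at 97.9 FPKM with the yeast and 14.7 FPKM with water, LOC100261661 at 97.6 FPKM with the yeast and 18.6 FPKM with water, and LOC100241164 at 83.8 FPKM with the yeast and 21.9 FPKM with water. LOC100260554 stood at 74.4 FPKM with the yeast and 34.6 FPKM with water, LOC100263437 at 69.3 FPKM with the yeast and 16.8 FPKM with water, and LOC100853526 at 40.9 FPKM with the yeast and 8.04 FPKM with water. Among these, LOC100260554 had the lowest ratio of the genes past 2-fold, at 2.15 (1.99 to 2.32). LOC100853590 stood at 25.5 FPKM with the yeast and 8.07 FPKM with water, LOC100246283 at 20.9 FPKM with the yeast and 5.82 FPKM with water, and LOC109121404 at 14.8 FPKM with the yeast and 4.01 FPKM with water. LOC100266849 was the least abundant gene past 2-fold, at 7.09 FPKM in the treated library and 1.02 FPKM in the control library, 6.97-fold higher (4.75 to 10.6).

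The order of the genes by abundance was nearly the same in both libraries. Over the 32 genes from LOC100262321 to STS, Spearman's rho between treated and control FPKM was 0.96, a description of genes that share libraries and, for many, fragments. The 5 genes most abundant in the treated library held 45.8% of the FPKM of the 38 genes there, and the same 5 held 42.1% in the control library. The largest gain in share was that of LOC100264173, by 3.20 percentage points. Of the 38 genes, 21 were among the 1000 most abundant of the 16040 measured genes in the treated library. In the control library 3 were. The 21 include the pseudogenes LOC100244710 and LOC100251425, whose FPKM sits in assembled models alone. Because the window was picked by its ratio and its genes share models, nothing is read from these counts.

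**Figure D2:**
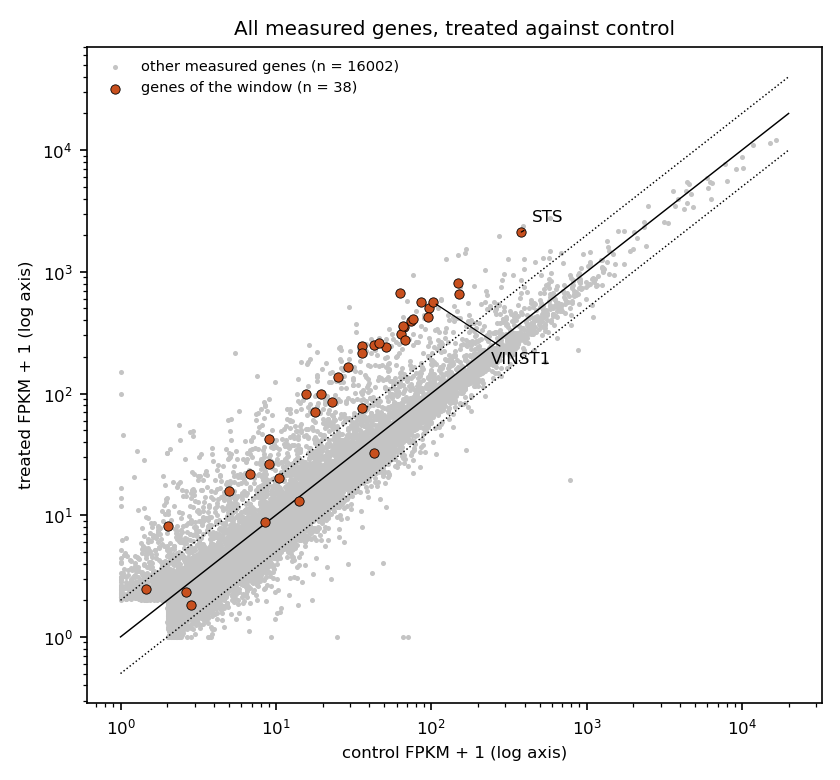
FPKM + 1 in the treated library (vertical axis) against the control library (horizontal axis), both on log scales, for 16002 other measured genes (grey) and the 38 genes of the window (orange). The solid line marks equal values and the dotted lines 2-fold differences, and 31 genes of the window lie on or above the upper dotted line.

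Along the chromosome the higher ratios started and ended within short distances. LOC100248574, the first gene of the window (16208771 to 16210450), stood at 12.2 FPKM in the treated library and 13.1 FPKM in the control library, 0.929 times the control (0.811 to 1.06). LOC100241934 (16225460 to 16227385) stood at 19.2 FPKM with the yeast and 9.41 FPKM with water. Its plain ratio was 2.04 (1.67 to 2.49) and its log2 ratio with the pseudocount 0.95, just under the 2-fold limit. After a gap of 11568 bases LOC100262321 began, at 16238954, with a ratio of 5.37 (5.10 to 5.65). Of its 354 FPKM with the yeast, 282 FPKM came from assembled models that reach further into the window. Its annotated model, confined to the edge, was 3.74-fold higher (3.41 to 4.10).

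Past the second STS copy the ratio dropped over a gap of 5958 bases. LOC100260082 (16717777 to 16718553) stood at 7.73 FPKM in the treated library and 7.54 FPKM in the control library, 1.02 times the control (0.790 to 1.33). The 3 genes after it were LOC104882147, at 0.845 FPKM with the yeast and 1.86 FPKM with water, LOC100254986, at 31.6 FPKM with the yeast and 41.9 FPKM with water, and LOC100241246, at 1.35 FPKM with the yeast and 1.65 FPKM with water. With the pseudocount these 4 genes all lay within 2-fold. LOC104882147, the long non-coding RNA, had the lowest plain ratio of the window at 0.455, past 2-fold lower, with an interval of 0.155 to 1.21 that includes 1. Its log2 ratio was -0.63 with the pseudocount of 1 and -1.05 with a pseudocount of 0.1.

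No gene beside the window was past 2-fold with the pseudocount, though LOC100245174 was on the plain ratio. Of the 5 measured genes before it, the ratios ran from 0.358 (LOC100245174, 1.11 FPKM in the treated library and 3.10 FPKM in the control library) to 1.02 (LOC100243443). The 5 after it ran from 0.651 (LOC100263513, which crosses the end of the window) to 0.859 (LOC100256642). Outside the higher stretch, 35 of 571 measured genes of chromosome 16 passed 2-fold upwards, or 6.13%, with a median log2 ratio of -0.31.

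Between the edges, from 16238954 to 16711818, lay 32 measured genes over 472865 bases, and 31 of them passed 2-fold. The exception was LOC109124132 (16252432 to 16253676), at 1.49 FPKM in the treated library and 0.459 FPKM in the control library. Its plain ratio was 3.25 (1.44 to 8.24), which the pseudocount brings to a log2 ratio of 0.77. It was, with LOC100241246, among the genes just inside the limit of 1 FPKM. Just outside were LOC109124135, at 0.104 FPKM in the treated library and 0.00788 FPKM in the control library, and the pseudogene LOC109124187, at 0.00106 FPKM in the treated library and listed at 0 in the control library. Since LOC109124132 interrupts it, the longest unbroken run by order of start held 29 genes, and the next longest run in the whole table held 12. As the window was picked by this ratio and its neighbouring genes share models, nothing is read from that ranking. The 29 include LOC100251425 and LOC100244710, pseudogenes that are higher through assembled models alone. By annotated models alone the longest run in the window held 15 genes.

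**Figure D3:**
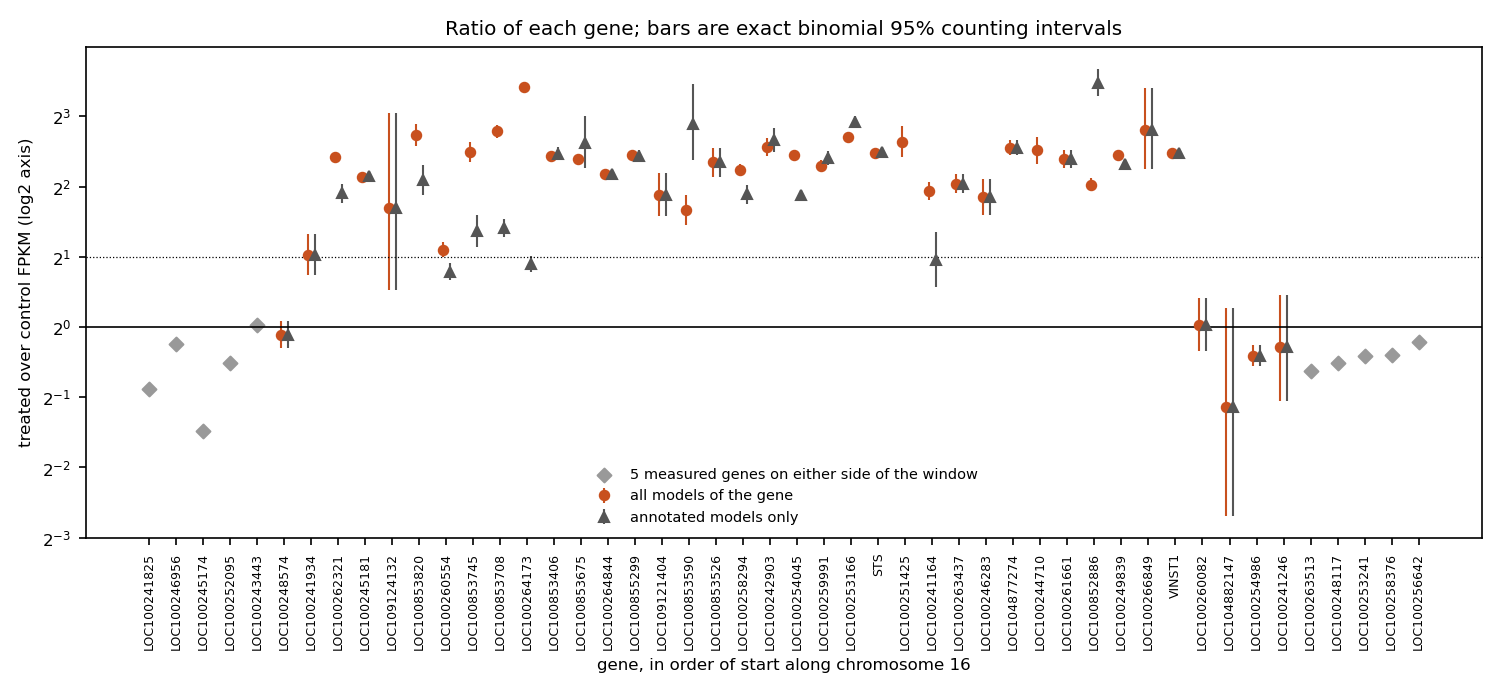
Ratio of treated to control FPKM (vertical axis, log2 scale) for the 38 genes of the window and 5 measured genes on either side, in order of start. Circles use all models of a gene, triangles the annotated models only, and bars are 95% counting intervals. The genes on either side lie near or below 1, and the triangles of LOC100260554, LOC100264173 and LOC100241164 lie below the dotted 2-fold line.

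The genes of the run share a gene structure that the choice of the window did not use. In 26 of the 29 genes of the run the most abundant annotated model has 2 exons, with 1179 to 1640 bases of transcript and a single intron of 136 to 379 bases. Over all 15058 measured genes with an annotated model, 14.1% have 2 exons and 0.624% fall in these ranges of length and intron. Both shares include the 26 genes. The ranges were taken from these 26 genes, which all fall inside them for that reason, so nothing is read from the 0.624%. Together with 3 genes before the run, 29 genes from LOC100262321 to STS have 2 exons. Their introns fall into 6 bands when split at gaps of 15 bases or more. The largest band holds 13 genes at 354 to 361 bases, STS (359) and VINST1 (361) among them. A further 5 genes lie at 376 to 379, 4 at 312 to 338 and 4 at 190 to 191 bases. LOC100853820 and LOC109121404 have introns of 136 bases, and LOC100242903 one of 208 bases.

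The bands of intron length overlapped in their ratios. By annotated models alone, the median ratio was 5.32 in the band of STS and VINST1 (1.87 to 11.2), 5.005 in the band at 376 to 379 bases (1.94 to 6.97), 3.91 in the band at 312 to 338 (2.65 to 6.18) and 3.83 in the band at 190 to 191 (1.73 to 7.44). Each of these 4 bands held genes on both sides of 4-fold. By the strand of their annotated model, 26 genes of the run lay on the minus strand. Over all their models these held 8097 FPKM in the treated library and 1505 FPKM in the control library, 5.38-fold higher in sum. That sum includes assembled models on the plus strand, among them all of the FPKM of the pseudogenes LOC100251425 and LOC100244710. The 3 genes of the plus strand held 1338 FPKM with the yeast and 198 FPKM with water, 6.75-fold higher in sum. By annotated models alone the order turned, with the minus strand 5.16-fold and the plus strand 4.09-fold higher in sum.

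The values of single genes depend on how fragments were divided among models. The 38 genes have 100 transcript models, of which 48 carry an annotated identifier and 52 were assembled from the reads. The annotated models of different genes hardly overlap, since 3 of the 38 genes overlap another gene by annotated models and 32 do so when assembled models are counted. Of the assembled models, 42 span at least 2 annotated genes from end to end, up to 12 genes in 1 model, and the longest is 169520 bases from start to end with 1348 bases of exon. Stilbene synthase genes are known as close copies of each other, and how alike the genes of this window are was not measured here. The division of fragments among overlapping models is uncertain, and the values of neighbouring genes are not independent.

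Assembled models took a larger share of the window in the treated library than in the control library. They held 5042 FPKM in the treated library, 47.9% of the FPKM of the 38 genes there, and 829 FPKM in the control library, 41.6% of theirs. The ratio of their sums was 6.08 (5.98 to 6.17). Annotated models held 5480 FPKM in the treated library and 1166 FPKM in the control library, 4.70-fold more (4.65 to 4.76). Of the 96 models that reached 1 FPKM in a library, 78 passed 2-fold upwards, where 8.08% of all measured models did, and 2 passed it downwards, where 7.21% did.

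**Figure D4:**
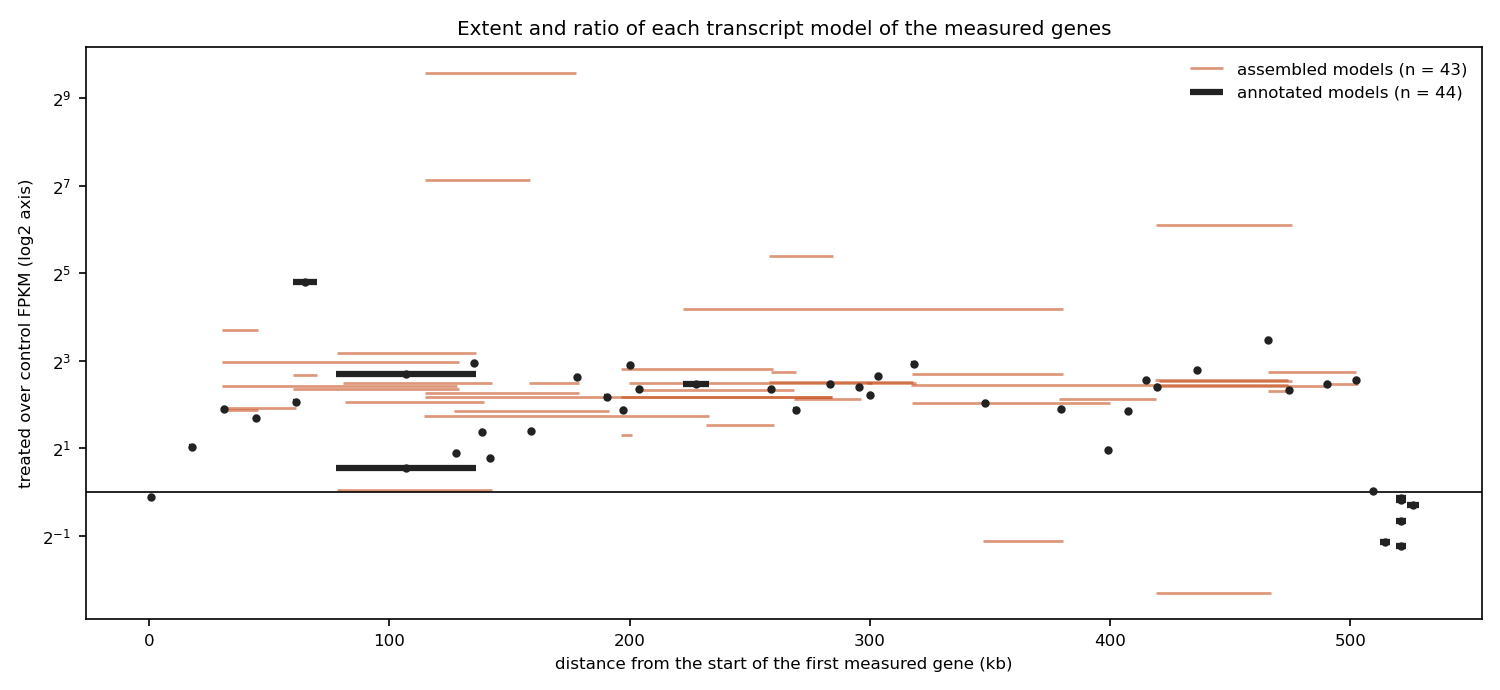
Each line is 1 transcript model of the 38 genes, drawn from its start to its end (horizontal axis, kb from the start of the first measured gene) at its ratio of treated to control FPKM (vertical axis, log2 scale). The 44 annotated models (black, with a dot at the middle) are mostly short, while the 43 assembled models (orange) run across several of them. A further 13 models, listed at 0 in 1 library or under 1 FPKM in both, are not drawn.

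LOC100264173 shows how far the 2 kinds of model can differ. Its annotated model (16335603 to 16337592, 2 exons, 1632 bases) stood at 56.3 FPKM in the treated library and 30.1 FPKM in the control library, 1.87-fold higher (1.73 to 2.02). With all 6 models the gene was 10.7-fold higher (10.2 to 11.2), the highest ratio of the window. Of the assembled ones, MSTRG.12778.1 (16323516 to 16386522, 775 bases in 2 exons) stood at 238 FPKM in the treated library, on 3901 fragment equivalents, and at 0.311 FPKM in the control library, on 5. MSTRG.12778.2, which shares its start, stood at 110 FPKM with the yeast and 0.787 FPKM with water. Both run on the plus strand and end inside annotated genes of the minus strand, LOC100853675 and LOC100853708.

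By annotated models alone, 36 of the 38 genes could be measured and 26 were past 2-fold, against 5.9% of all genes measured in this way. Past 4-fold the count was 17, where it was 25 with all models. The share of all genes past 4-fold by annotated models was not computed, so nothing is read from the 17. Their median log2 ratio was 1.97, beside -0.28 for all genes. Besides LOC100264173, LOC100260554 and LOC100241164 came within 2-fold. LOC100260554 stood at 49.1 FPKM with the yeast and 28.4 FPKM with water, 1.73-fold higher (1.59 to 1.88), and LOC100241164 at 5.52 FPKM with the yeast and 2.85 FPKM with water, 1.94-fold higher (1.49 to 2.55). The run of 29 genes was 15 genes long by this count.

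Several of the low ratios by annotated models came from neighbouring genes. LOC100260554, LOC100264173, LOC100853745 and LOC100853708 were 4 of the 5 lowest between the edges, and all lie within 32.87 kb, from 16335603 to 16368472. LOC100853745 stood there at 18.4 FPKM with the yeast and 7.16 FPKM with water, 2.57-fold higher (2.19 to 3.02). LOC100853708 stood at 63.4 FPKM with the yeast and 24.0 FPKM with water, 2.65-fold higher (2.42 to 2.89). This stretch was picked out after the values were seen, and not every gene in it was low. The 2-exon annotated model of LOC100853820 (16343030 to 16344622) also lies there and stood at 24.4 FPKM with the yeast and 3.16 FPKM with water, 7.72-fold higher (6.21 to 9.71). With its 2 longer annotated models, which reach beyond the stretch, that gene was 4.26-fold higher (3.68 to 4.96). At the upper end by gene, LOC100852886 stood at 96.0 FPKM with the yeast and 8.60 FPKM with water by its annotated model. That was 11.2-fold higher (9.81 to 12.7), but the gene was 4.08-fold higher over all its models. Its assembled model MSTRG.12789.2 went the other way, at 6.18 FPKM in the treated library and 30.6 FPKM in the control library. Among single annotated models the highest ratio was 28.1 (19.3 to 42.5), for a model of LOC100245181 with 3 exons. It stood at 23.6 FPKM with the yeast and 0.839 FPKM with water, while all annotated models of that gene together were 4.46-fold higher.

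Several assembled models were listed at 0 in 1 library. There were 8 with 10 FPKM or more in the treated library and 0 in the control library, and 1 the other way round. The highest were MSTRG.12777.14 of LOC100853708, at 142 FPKM with the yeast, and MSTRG.12775.17 of LOC100264173, at 138 FPKM with the yeast. MSTRG.12775.8 of LOC100245181 was listed at 0 in the treated library and stood at 24.4 FPKM in the control library. MSTRG.12775.10 has the same end and 15 bases less of transcript, but 3 exons where MSTRG.12775.8 has 4. It stood at 48.1 FPKM in the treated library and was listed at 0 in the control library. No annotated model was listed at 0 in 1 library with 10 FPKM or more in the other.

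The pseudogenes LOC100251425 (16618991 to 16620545) and LOC100244710 (16647473 to 16649027) are counted among the 31 higher genes through assembled models alone. Their annotated models have the same structure, 3 exons and 924 bases on the minus strand, lie 26.927 kb apart and were listed at 0 in both libraries. LOC100251425 stood at 215 FPKM in the treated library and 34.6 FPKM in the control library, and LOC100244710 at 259 FPKM with the yeast and 45.3 FPKM with water. All of this sits in 6 plus-strand models of 209 to 521 bases that run across other genes. The deposited gene table lists both genes at 0 in both libraries.

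In all, 11 assembled models lie on the strand opposite to the annotated model of their gene, in 5 genes, with 200 to 521 bases of transcript each. They held 899 FPKM in the treated library and 158 FPKM in the control library, 5.69-fold more in sum, beside 5.27-fold for all models of the 38 genes. The labels do not say whether the libraries keep strand, so reads from a gene and from its opposite strand cannot be told apart.

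The deposited gene table does not resolve the single genes. Among the 38 genes it holds 14 distinct pairs of values. One pair, 773 in the treated library and 147 in the control library, stands beside 17 genes, STS among them. In all, 28 genes share their pair with another gene, the 2 pseudogenes with their values of 0 among them. The deposited table thus gives many genes the value of their assembled locus. VINST1 has its own pair in that table, 1360.2 with the yeast and 238 with water, and its locus also contains the second STS copy.

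Other genes of the pathway, taken by symbol or synonym, were set beside the cluster. The 3 entry genes were all past 2-fold, with GVVPAL2 at 214 FPKM in the treated library and 39.8 FPKM in the control library, 5.38-fold higher (5.12 to 5.66). LOC100245997 (synonym PAL) was 3.95-fold and 4CL 2.96-fold higher. MYB14 was 3.68-fold higher (3.36 to 4.03), at 136 FPKM with the yeast and 37.1 FPKM with water. Of the competing flavonoid branch, the 3 genes matched were within 2-fold. The chalcone synthases LOC100232843 (synonym CHS2) and LOC100263443 (synonym CHS1) of the gene table matched no gene name in the tables used here. CHS stood at 11.8 FPKM with the yeast and 17.8 FPKM with water, CHS3 at 15.8 FPKM with the yeast and 27.3 FPKM with water, and the chalcone isomerase CHI at 325 FPKM with the yeast and 188 FPKM with water. OMT2.1, which has the synonym romt for the enzyme that methylates resveratrol, had 3 fragment equivalents in the treated library and 0 in the control library, so no difference was detectable at this depth. Cinnamate 4-hydroxylase, MYB15 and resveratrol glucosyltransferase could not be matched to a symbol.

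The 2 libraries had 20540965 fragment equivalents with the yeast and 19010746 with water. Of the berry genes checked, 7 of 7 were measured in both libraries, from 439.5 FPKM (GRIP22) to 8709 FPKM (GRIP4) in the treated library and from 500.5 FPKM (TL1) to 9967 FPKM (GRIP4) in the control library. The green tissue genes PSBP1, psbA and rbcL were at most 4.11 FPKM in the treated library and 6.76 FPKM in the control library. Of these, psbA and rbcL lie on the plastid genome, and no tissue content is read from their values. Among all measured genes 73.5% had a log2 ratio below 0.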

How the data were processed

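HISAT2 and HTSeq 0.6.1 are named in the submitters' processing notes, with no role for either. Genome build, annotation and library strandedness are not given in the sources used here. Per the file headers, the deposited tables give, for 53908 transcript models in each library, the FPKM and the mean coverage per base, a signal that was not corrected for depth. The authors' deposited gene table is named FPKM, but it repeats 1 value for all genes of a locus, so it was treated as a score and used only for ratios.

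FPKM was summed over the models of each gene name (pandas 2.3.3). The ratio for counting genes was log2((treated + 1)/(control + 1)), which understates differences of low genes. Printed folds are plain FPKM ratios. Models whose identifier starts with MSTRG were called assembled, all others annotated. Coverage times length gave aligned bases, and 300 bases, taken as a pair of reads of 150 bases, counted as 1 fragment equivalent. The read length is inferred, not stated. Counting intervals (95%, exact binomial, scipy 1.17.1) were computed from fragment equivalents rounded to whole numbers, and the FPKM ratio was given the same relative width. Reads carry no molecular identifiers, so they cover counting error only. The calculations were tested on simulated data. Synonyms, biotypes and the chromosome number were read from RefSeq's gene table for the assembly ASM3070453v1, which had a row for 37 of the 38 genes. Its coordinates were not used.

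The members, the pathway and tissue lists and the alternatives were chosen with earlier results of these data known. The rule for named genes lets every kept gene be named, with full values for STS, VINST1, the 8 most abundant, the 4 highest and 4 lowest ratios and the edges of the run. The remaining genes were given in both libraries too. Of the tissue list, RBCS, LHCB and CAB matched no symbol.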

Additional observations from a re-analysis of the deposited data

How the results depend on the processing

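No paired analysis was possible because the study has 1 library with the yeast and 1 with water, so no replicate could be left out either. The count of 31 genes past 2-fold was 30 to 33 under other pseudocounts, filters and scalings and by aligned bases. The deposited gene table also has 30 genes past 2-fold, but it gives many genes the value of their locus. It therefore cannot recount single genes. It keeps 29 of the 31 and adds LOC109124132, whose log2 ratio of 0.77 becomes 2.23 there, a value shared with other genes. With a pseudocount of 0.1, LOC104882147 was past 2-fold lower (-1.05) and the run held 33 genes, from LOC100241934 at 16225460. None of the 31 genes changed sign under any alternative that gave it a value, though the 2 pseudogenes are at 0 in both libraries of the deposited gene table. Scaling all genes to a median log2 ratio of 0 moved the summed ratio of the 38 genes to 6.59, their median log2 ratio to 2.57, STS to 6.99 and VINST1 to 6.96. Over all measured genes that scaling turned 1004 higher and 587 lower genes (63.1% higher) into 1379 higher and 288 lower (82.7%). By aligned bases the summed ratio was 5.17. The median was 2.36 and 2.13 with pseudocounts of 0.1 and 5, 2.38 for genes that reached 10 FPKM, and 2.34 from the repeated values of the deposited gene table. STS was at 5.28 there, but that is the ratio of the pair that stands beside 17 genes. The second STS copy lies in the locus of VINST1, so 5.28 is no separate check of STS. No sum was made from that table, because it repeats values. Annotated models alone, an alternative chosen after seeing the data, gave a summed ratio of 4.70, a median of 1.97 and a longest run of 15 genes. Counted by assembled locus, 19 of 25 loci were higher. Some of these loci hold only 1 short model on the strand opposite to its gene. The share over all loci was not computed, so nothing is read from this count. The 6 genes that overlap no other gene are the genes outside the edges. Of these none was 2-fold higher, their summed ratio was 0.965 and their median -0.14, which follows from their position. Likewise the 9 genes outside the run, added after seeing the data, had a summed ratio of 3.72, a median log2 ratio of 0.031 and 2 genes higher. With 1 library per group, depth limits counting error only.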
